A study of Mus musculus with 55 samples.

Results

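Laminins and integrins, the adhesion proteins of the basement membrane and their cell surface receptors, were followed through 5 times after optic nerve crush in the mouse optic nerve head (ONH), the region where the axons of retinal ganglion cells leave the eye. The members were chosen by gene symbol. Every probe set that names a single gene was searched for symbols of the form Lama, Lamb or Lamc followed by a digit and for symbols that begin with Itga or Itgb, and the probe set that was brightest on average stood for its gene. This gave 36 of the 12393 genes that such probe sets name. They comprise 10 laminin chains, 21 integrin chains and 5 further genes whose symbols the search takes. The search itself used no difference between samples, but it was set with earlier results of these data known. The integrin chains Itga1, Itga10, Itga11, Itgad and Itgb8 are not analysed here, because no probe set that names one of them alone was given.

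The left optic nerve of female C57Bl/6 mice was crushed for 10 seconds, and the site of injury lay 1 mm from the globe, and the right eye of the same mice, which was not operated on, gave the contralateral ONH. Mice were 6 to 8 weeks old at surgery. Crushed and contralateral ONHs were collected 1 day after crush, then at 3 days, at 1 week and at 3 weeks, and last at 3 months, and naïve ONHs came from mice without surgery. Each of the 11 conditions had 5 biological replicates, each replicate was a pool of 2 ONHs, so that each crushed sample had as its partner the contralateral ONHs of the same mice. The mice were wild type, so no allele separates the groups, and pooling hides the spread between single animals. The naïve ONH was a second control for the contralateral ONH up to 3 weeks.

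A laminin is a trimer of an alpha, a beta and a gamma chain, and laminins form the sheet to which a basement membrane is anchored. In the optic nerve such membranes lie beneath the endfeet of astrocytes, around blood vessels and under the pia. An integrin is a pair of an alpha and a beta chain that spans the cell membrane. Some pairs bind laminin, collagen, fibronectin or tenascin and hold glia, vessel cells and fibroblasts to the matrix, whereas the pairs that contain the beta chains Itgb2 or Itgb7 belong to leukocytes and to microglia, the macrophages of nerve tissue.

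Values are linear intensities, 1 for each probe set and array. An intensity near 50 is close to the lowest level at which probe sets were tested, and levels of different probe sets cannot be set against each other. Array medians ranged from 459.2 to 553.8 for the naïve samples and the times up to 3 weeks, and from 494 to 597.6 for the samples at 3 months, which were a batch of their own. Transcripts of photoreceptors, cells of the neighbouring retina, varied widely within groups, from a summed intensity of 638.8 to 120100 over 11 genes. Contralateral replicate 1 at 3 months held the highest of these sums and stood apart from its group in several members. The tissue was dissected free of the meningeal sheath. All 9 marker genes of meningeal fibroblasts reached an intensity of 50, and so did the 12 astrocyte genes measured, which mark the glia of the ONH. On each array 17514 to 19341 of 22626 probe sets reached 50, so this level alone does not show that sheath remained. In such tissue, fewer cells of a type and less RNA for each cell cannot be told apart.

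Of the 36 members, 31 were tested from 1 day to 3 weeks and 30 at 3 months. A member is called higher or lower below when the adjusted p from limma was under 0.05 and the difference was at least 2-fold. At 1 day 6 members were higher and 6 lower in crushed than in contralateral ONHs, where 14.5% of all probe sets tested were called, 7.02% higher and 7.44% lower. At 3 days 6 were higher and 0 lower (8.79% of all called, 6.60% higher and 2.20% lower). At 1 week 7 were higher and 4 lower (9.73%, 6.21% and 3.53%), and at 3 weeks 4 were higher and 0 lower (4.11%, 2.36% and 1.75%). At 3 months 1 of 30 was higher and 0 were lower, where 0.462% of all were called, 0.207% higher and 0.255% lower. At 3 days, 3 weeks and 3 months, when limma called no member lower, 4, 1 and 1 members were lower at an unadjusted p under 0.05. Groups that do not overlap were common across the array, at 45.9%, 30.7%, 22.1%, 16.4% and 6.79% of all probe sets from 1 day to 3 months.

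**Figure D1:**
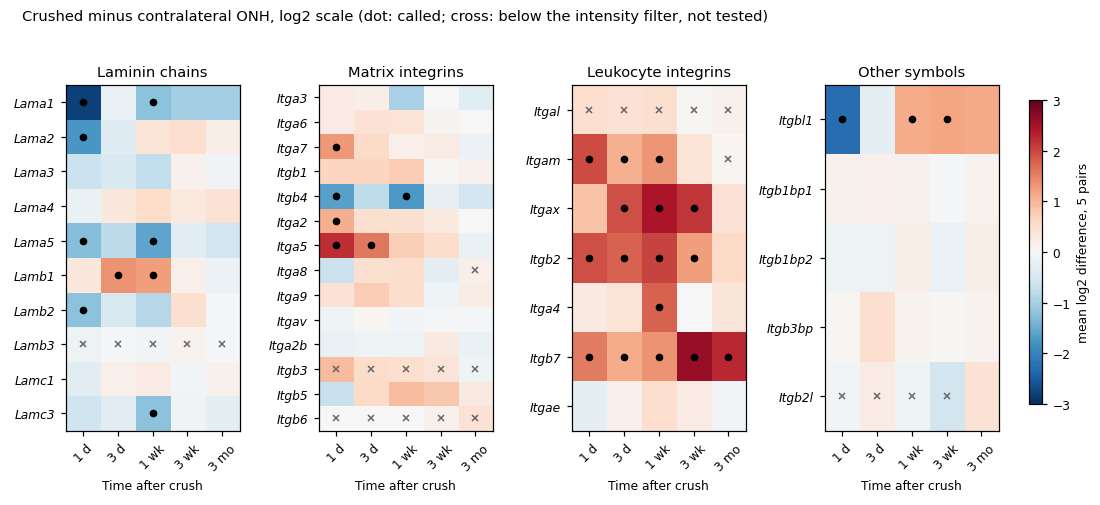
Mean log2 difference between crushed and contralateral ONHs over 5 pairs for each of the 36 members (rows) at each time (columns), in 4 panels by kind of gene. Dots mark called differences and crosses mark members below the intensity filter. The leukocyte integrins Itgb2, Itgax and Itgb7 are red across the times, whereas Lama1, Lama2, Lama5, Lamb2 and Itgb4 are blue at 1 day.

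The median log2 difference over the 7 leukocyte integrins was 0.85 at 1 day, 1.08 at 3 days, 1.35 at 1 week, 0.42 at 3 weeks and 0.36 at 3 months. Over the 14 integrins that bind matrix it was 0.24, 0.48, 0.43, 0.11 and -0.03, and over the 10 laminin chains it was -0.62, -0.26, -0.42, 0.11 and -0.09. The median over all genes lay between -0.01 and 0.02. Within every one of the 25 pairs of samples the leukocyte median exceeded the matrix median, by 0.07 to 1.64. These medians include members too dim to be tested and carry no test of their own. The leukocyte median at 1 day was 1.37 without a floor on intensities, and with a floor of 50 the matrix medians at 3 days, 1 week and 3 weeks were 0.21, 0.06 and 0. With a common median the laminin median at 3 days was -0.40. At 3 weeks the leukocyte median was 0.28 without pair 5 and the laminin median 0 without pair 3 and 0.20 without pair 1. At 3 months the leukocyte median ran from 0.22 without pair 3 to 0.54 without pair 5, the matrix median from -0.16 without pair 1 to 0.10 without pair 2, and the laminin median from -0.30 without pair 1 to 0.05 without pair 2, so that the last 2 have no settled sign.

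**Figure D2:**
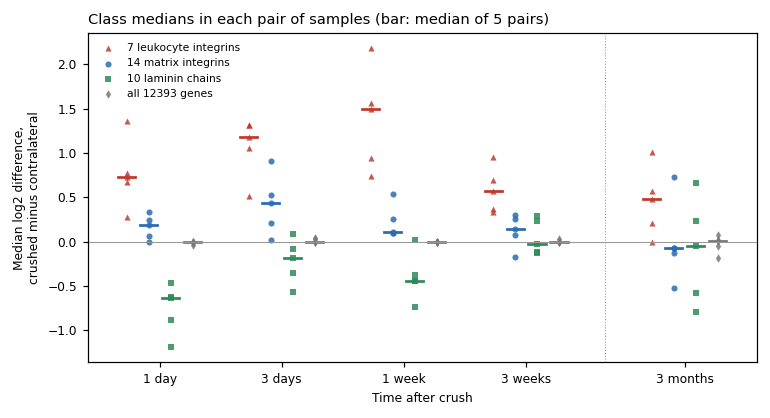
Median log2 difference between crushed and contralateral ONHs in each pair of samples (points) for 7 leukocyte integrins, 14 matrix integrins, 10 laminin chains and all 12393 genes, by time after crush. Bars are medians of the 5 pairs, the dotted line separates the 2 batches of arrays, and in each pair the triangle of the leukocyte integrins lies above the circle of the matrix integrins.

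Among the 10 laminin chains, 3 of the 5 alpha chains, Lama1, Lama2 and Lama5, fell at 1 day, together with the beta chain Lamb2. Another beta chain, Lamb1, was not called at 1 day and was higher at 3 days and at 1 week. Of all probe sets tested, 7.44% were called lower at 1 day, and 6.60% and 6.21% higher at 3 days and 1 week. No laminin chain was called at 3 weeks or at 3 months, where limma gave an unadjusted p under 0.05 to 3 chains and to 1 chain.

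Lama1 is the alpha chain of the laminin found in pial and retinal surface membranes. In the pairs 1 to 5 at 1 day its intensities were 154.4, 377.6, 487.2, 183.5 and 507.3 in contralateral ONHs. In the crushed ones they were 69.7, 24.16, 33.99, 63.34 and 45.26. Every crushed sample lay below every contralateral sample, and 3 of them were under 50. The log2 difference was -2.80 ± 0.38 (SE, n = 5 pairs, limma adjusted p = 3.7e-06). At 3 days the groups overlapped, with means of 212.1 ± 78.35 (SD, n = 5) and 191.2 ± 83.68, and the difference of -0.20 was not called. At 1 week Lama1 was lower again, by -1.23 ± 0.38 (adjusted p = 0.014), a call that was lost without pair 1 (adjusted p = 0.055) or pair 3 (0.064). At 3 weeks all crushed samples, at 39.81 to 116.7, were still below all contralateral samples, at 125.2 to 203.9, but the difference of -1.01 had an adjusted p of 0.063.

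Lama2, the alpha chain of the laminin that lines astrocyte endfeet, muscle and peripheral nerve fibres, was at 1630, 1392, 1618, 1477 and 2170 in the contralateral ONHs at 1 day. The crushed ONHs were at 557.3, 336.2, 471.4, 723.5 and 450.5. All 5 were far below the lowest contralateral sample, and the log2 difference was -1.73 ± 0.19 (adjusted p = 1.5e-07). By 3 weeks the order had turned. The crushed samples were at 1665, 1691, 2126, 1901 and 1596 and the contralateral ones at 1376, 1256, 1071, 1106 and 1554, with no overlap. That difference, 0.50 ± 0.19, was not called (adjusted p = 0.056), but the crush effect at 3 weeks exceeded that at 1 day by 2.24 ± 0.26 (adjusted p = 2e-06).

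Lama5, the widespread alpha chain of vessel and epithelial membranes, was at 499.7, 560.4, 478.9, 512.2 and 481.6 in contralateral ONHs at 1 day. It was at 249.1, 220.8, 194.2, 287.5 and 128.3 in the crushed ones, all lower, and the log2 difference was -1.28 ± 0.18 (adjusted p = 6.8e-06). At 3 days the difference was -0.78 ± 0.18 (adjusted p = 0.0019), short of 2-fold. It was largest at 1 week, where crushed samples were at 111.4, 151.7, 171.8, 170.2 and 86.77 against 487.2, 465.9, 579.7, 296.1 and 265.6. The contralateral samples of pairs 4 and 5 were the lowest of their group, and still above all crushed samples. The difference at 1 week was -1.58 ± 0.18 (adjusted p = 1.1e-06), and a second probe set gave -1.69. At 3 weeks it was -0.32 ± 0.18 and not called.

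At 3 weeks the contralateral ONHs were themselves below the naïve ones, with means of 222.5 ± 19.56 against 436.4 ± 134.4 for Lama5 (log2 difference -0.91 ± 0.20, adjusted p = 0.0095, unpaired model). For Lamb2 the means were 1849 ± 277.4 and 3089 ± 883.9 (-0.69 ± 0.20, adjusted p = 0.03). Neither difference reached 2-fold, and the naïve samples carry no time of collection, so age and time cannot be told apart from crush of the other eye. Naïve replicate 5 was the lowest of its group for both, at 228.3 and 1596, and without it 1 member was called lower in contralateral ONHs at 3 weeks. The crushed ONHs at 3 weeks had means of 184.2 ± 57.18 for Lama5 and 2585 ± 553.9 for Lamb2.

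Lamb2, the beta chain of mature vessel, synaptic and retinal membranes, was at 3639, 3033, 3344, 3220 and 3140 in contralateral ONHs at 1 day. The crushed samples, at 1893, 1110, 1335, 1779 and 1013, were all lower, and the log2 difference was -1.24 ± 0.16 (adjusted p = 1.2e-06). It was -0.49 at 3 days and -0.85 at 1 week, both with an adjusted p under 0.05 and under 2-fold, and 0.47 ± 0.16 at 3 weeks (adjusted p = 0.033). The crush effect differed between 1 week and 3 weeks by 1.32 ± 0.22 (adjusted p = 0.00061).

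Lamb1, the beta chain that predominates in development, went the other way. At 3 days the contralateral ONHs were at 636.5, 915.8, 788.4, 978 and 984.7 and the crushed ones at 2023, 1588, 2910, 2203 and 2305. Each crushed sample was above all controls, and the log2 difference was 1.35 ± 0.16 (adjusted p = 1.4e-06). At 1 week it was 1.25 ± 0.16 (adjusted p = 3.6e-06), with crushed samples from 2244 to 3442 and contralateral ones from 832.9 to 1666. Both further probe sets of Lamb1 were higher at these times as well, by 1.59 to 1.79. At 3 weeks crushed samples, at 649.1 to 1048, overlapped the contralateral ones, at 600.4 to 842.3.

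The gamma chain Lamc3 was dim, and was called at 1 week alone. Contralateral ONHs were then at 96.96, 70.32, 119.5, 88.66 and 47.62 and crushed ones at 32.01, 38.55, 25.19, 45.76 and 34.12, all below 50 (log2 difference -1.23 ± 0.28, adjusted p = 0.0016). With a floor of 50 in place of 20 the difference was -0.71, a second probe set gave -0.44 with an adjusted p of 0.3, and without pair 3 it was -0.98. Lamc1, the gamma chain of most laminins, was bright and moved from -0.31 at 1 day (adjusted p = 0.0071) to 0.25 at 1 week (0.033). A second probe set of Lamc1 gave -0.34 at 1 day (0.044) and 0.67 at 1 week (0.00053). Lama4, the alpha chain of capillaries, was 0.55 higher at 1 week (adjusted p = 0.0036). Its second probe set gave -0.68 at 1 day and 0.72 at 1 week (both 0.0012). Lama3, a chain of epithelial laminin, was lower by -0.64 at 1 day (0.014) and -0.74 at 1 week (0.0071). All of these differences were under 2-fold. Lamb3, a chain of the same epithelial laminin, stayed between 11.59 and 61.77 and was not tested at any time.

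**Figure D3:**
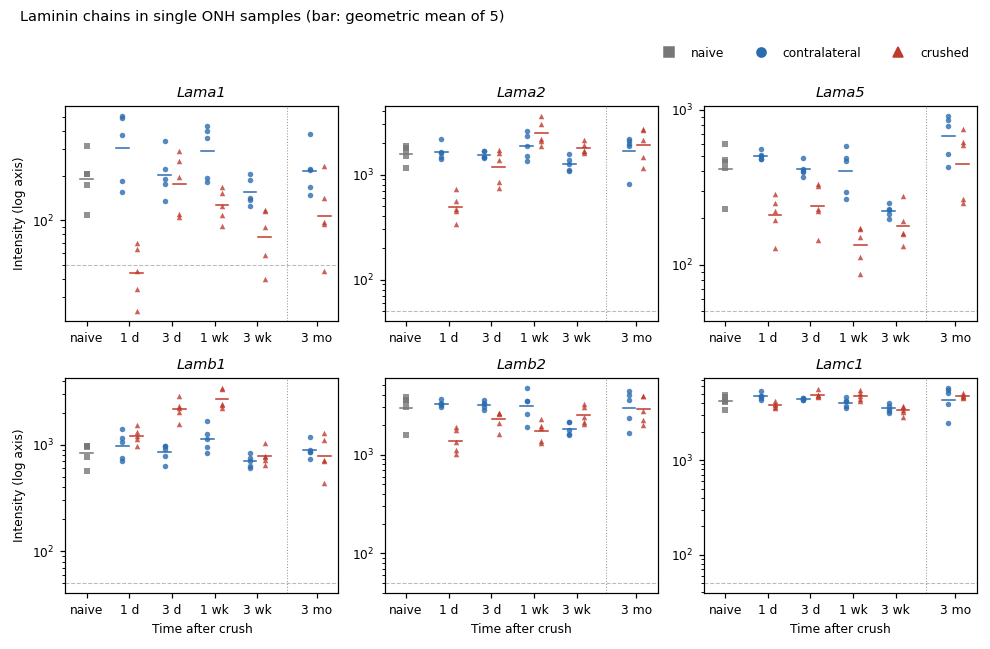
Intensity of 6 laminin chains in every sample on a log axis, for naïve (squares), contralateral (circles) and crushed (triangles) ONHs by time after crush. Bars are geometric means of 5, the dashed line marks an intensity of 50 where it lies in range and the dotted line separates the batches. The crushed samples lie below the contralateral ones at 1 day for Lama1, Lama2, Lama5 and Lamb2, and above them at 3 days and 1 week for Lamb1.

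The summed intensity of 9 genes of pericytes and smooth muscle was 24780 to 30980 in contralateral and 9771 to 18270 in crushed ONHs at 1 day, with 3 of 9 genes called lower, and it overlapped at 3 days and 1 week. For 9 meningeal fibroblast genes the sums were 49730 to 62470 and 31590 to 41000 at 1 day (3 of 9 lower), and 52060 to 61970 and 62340 to 77050 at 1 week (0 called). The 12 astrocyte genes summed to 76400 to 82330 and 44920 to 57700 at 1 day (4 of 12 lower), and to 76060 to 84200 and 58590 to 66640 at 1 week (1 of 12 lower). The 10 endothelial genes had overlapping sums at both times. At 3 days, when Lamb1 was first called, they summed to 14000 to 19470 and 21940 to 34310, with 4 of 10 higher. Of all probe sets tested, 7.44% were called lower at 1 day, 6.60% higher at 3 days and 3.53% lower at 1 week. The part of these cell types in the laminin differences was not tested.

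Of 8 partners of laminin, 0 were higher and 1 lower at 1 day. At both 3 days and 1 week 2 were higher and 0 lower, and none was called later. The shares of all probe sets called were 14.5%, 8.79% and 9.73% from 1 day to 1 week. The collagen chain Col4a1, which forms the second network of the membrane, was higher by 1.30 ± 0.17 at 3 days (adjusted p = 3.3e-06) and by 1.21 ± 0.17 at 1 week. Nid2, a nidogen that links the laminin and collagen networks, was higher by 1.01 ± 0.17 at 3 days and by 1.5 ± 0.17 at 1 week (adjusted p = 1e-06). Bcam, a surface receptor for Lama5, was lower by -1.18 ± 0.19 at 1 day (adjusted p = 2.2e-05). The partners' median log2 difference was -0.01, 0.42, 0.29, 0.33 and 0.09 from 1 day to 3 months.

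Among the 5 integrin chains of laminin receptors, 1 was higher and 1 lower at 1 day, 0 were called at 3 days and 1 was lower at 1 week. Of all probe sets tested, 14.5%, 8.79% and 9.73% were called at these times. Itgb4 pairs with Itga6 and anchors cells to laminin. At 1 day it was at 1575, 1724, 1772, 1347 and 1465 in contralateral and at 847.9, 217.9, 757.1, 776.5 and 313.6 in crushed ONHs. No crushed sample reached the controls, and pairs 2 and 5 were the lowest (log2 difference -1.62 ± 0.28, adjusted p = 6.2e-05). At 1 week it was at 2021, 1931, 2528, 982.2 and 917 in contralateral and at 424.2, 847.7, 570.5, 442.6 and 255 in crushed ONHs. The contralateral samples of pairs 4 and 5 were again low, yet above all crushed ones, and the difference was -1.72 ± 0.28 (adjusted p = 6.1e-05). At 3 weeks it was -0.25 and not called, and the effect differed between 1 week and 3 weeks by 1.46 ± 0.40 (adjusted p = 0.018), which was 0.051 without replicate 2 and 0.07 without replicate 3.

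Itga7, the laminin receptor chain of muscle and vessel wall, was at 105.8, 129.9, 110.8, 88.57 and 154.5 in contralateral and at 401.7, 195.1, 297.1, 306.2 and 259.4 in crushed ONHs at 1 day. The groups did not overlap (1.29 ± 0.28, adjusted p = 0.00052). It was not called later, although crushed pair 3 at 1 week stood out at 404 against 84.49 to 140.6 in the other crushed samples. Itgb1, the shared partner of most matrix-binding alpha chains, was above all controls at 1 day, 3 days and 1 week, by 0.64, 0.64 and 0.76, each with an adjusted p under 0.05 and under 2-fold. Of its 5 dimmer probe sets, 4 were tested, and 3 were called higher at 1 day, at 1.05 to 1.64, and 2 at both 3 days and 1 week, at 1.18 to 1.54. Itga6 was higher by 0.23, 0.44 and 0.41 at these times (adjusted p = 0.012, 9.7e-05 and 2e-04). Itga3 was lower by -0.97 ± 0.19 at 1 week (adjusted p = 3e-04), just under 2-fold, and its effect decreased by 1.17 between 3 days and 1 week (adjusted p = 0.01), while its other probe sets gave -0.19 and -0.22 at 1 week.

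Of the other integrins of the matrix, Itga5 changed most. Itga5 pairs with Itgb1 to form the fibronectin receptor. At 1 day it was at 590.2, 626.9, 702.9, 770.3 and 891.5 in contralateral and at 3252, 3759, 3283, 2698 and 3530 in crushed ONHs. All crushed samples were more than 3 times the highest control, and the log2 difference was 2.21 ± 0.19 (adjusted p = 7.6e-09). At 3 days crushed samples were at 2606, 1887, 2157, 1897 and 3084 against 831.6, 769.3, 638.3, 923.1 and 693.7, again without overlap (1.58 ± 0.19, adjusted p = 1.4e-06). At 1 week the groups overlapped and the difference was 0.72 ± 0.19 (adjusted p = 0.0043). The effect at 3 weeks differed from that at 1 day by -1.68 ± 0.27 on the log2 scale (adjusted p = 5.7e-05). A second, dimmer probe set of Itga5 gave 1.76 at 1 day and 1.41 at 3 days.

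Itga2, the alpha chain of a collagen receptor, was dim. It was at 23.12, 13.08, 30.73, 25.03 and 19.15 in contralateral and at 73.54, 21.62, 56.81, 38.47 and 91.71 in crushed ONHs at 1 day, with crushed pair 2 inside the range of the controls. The log2 difference of 1.10 ± 0.29 (adjusted p = 0.0035) was 0.32 with a floor of 50, 0.95 without pair 1 and 0.82 without pair 5. Up to 3 weeks no contralateral sample of Itga2 exceeded 45.71. Itga2 thus passed the intensity filter through crushed samples alone, and its call carries that limit. Itgb5, a partner of Itgav in a vitronectin receptor, turned from -0.66 at 1 day to 0.56 at 3 days, 0.93 at 1 week and 0.80 at 3 weeks. Its groups did not overlap at any of these times and each adjusted p was under 0.05, but no difference reached 2-fold, and 3 other probe sets of Itgb5 gave 0.96 to 1.00 at 1 week. The change of its effect from 1 day to 3 days was 1.22 ± 0.21 (adjusted p = 0.00051).

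Itgav itself, at 7940 to 9979 in naïve ONHs, differed by -0.13 to 0.05 with its brightest probe set, which was not called at any time. Its 2 dimmer probe sets disagreed. The dimmest, with a mean intensity of 144, was higher by 1.17, 1.14 and 1.05 at 1 day, 3 days and 1 week, and the other, with a mean of 513.6, gave 0.01 and 0.46 without a call and was higher by 1.04 at 1 week. Itga9, a tenascin receptor chain, was higher by 0.75 at 3 days (adjusted p = 0.0085), under 2-fold. Itga2b, the fibrinogen receptor chain of platelets, differed by -0.20 to 0.26 up to 3 weeks and was not called. The 5 platelet genes measured summed to 975 to 1504 in contralateral and 5032 to 12680 in crushed ONHs at 1 day. Of these genes 3 were tested and 2 were called higher, against 7.02% of all probe sets tested, and Gp9 was never at 50. Itga8 never exceeded 72.89, and its change of effect between 1 day and 3 days, 1.13, was 0.21 with a floor of 50. Itgb3, the partner of Itga2b, and Itgb6, an epithelial chain, were too dim to be tested, with highest intensities of 69.34 and 31.94.

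**Figure D4:**
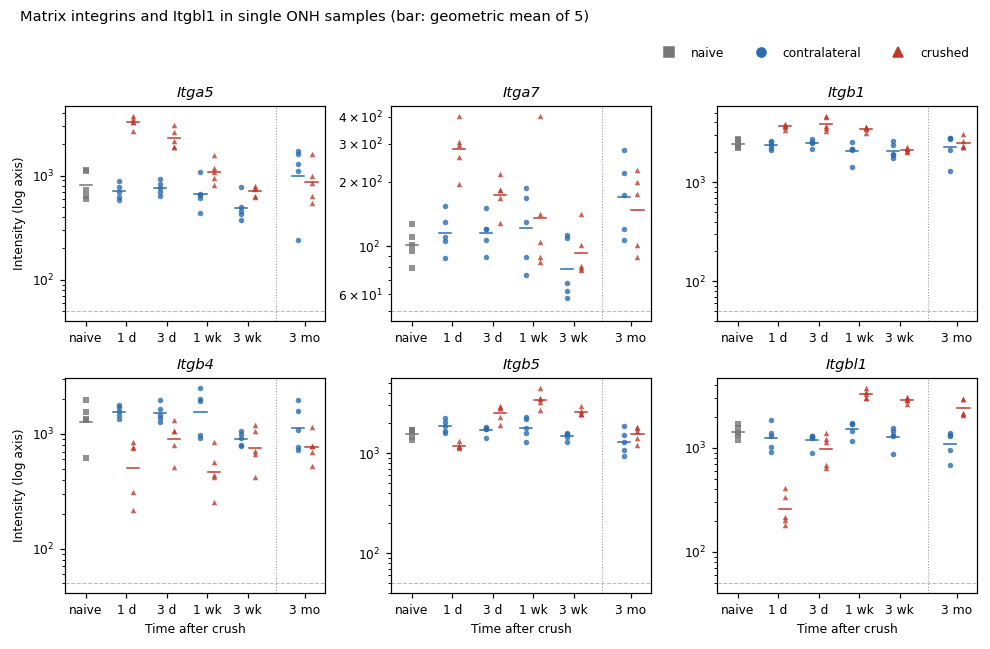
Intensity of 5 matrix integrin chains and of Itgbl1 in every sample on a log axis, for naïve (squares), contralateral (circles) and crushed (triangles) ONHs by time after crush. Bars are geometric means of 5, the dashed line marks an intensity of 50 where it lies in range and the dotted line separates the batches. Itga5 is far above its controls at 1 day and 3 days, Itgb4 below them at 1 day and 1 week, and Itgbl1 below at 1 day and above from 1 week on.

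Of 12 matrix proteins that integrins bind, 9 were tested. Of these, 2 were higher and 2 lower at 1 day, 2 higher at 3 days, 3 higher at 1 week and 1 higher at 3 weeks. Among all probe sets tested, 14.5%, 8.79%, 9.73% and 4.11% were called at these times. The median over the 12 was 0.03, 0.18, 0.11 and 0.15. Thbs1, thrombospondin of platelets and wounds, was higher by 3.59 ± 0.38 at 1 day (adjusted p = 1.4e-07), 3.47 at 3 days and 2.11 at 1 week. Edil3, a ligand of Itgav pairs, was lower by -1.84 ± 0.21 at 1 day (adjusted p = 3.5e-07). Postn, periostin of scars and fibroblasts, was lower by -1.12 at 1 day and higher by 1.60 ± 0.23 at 1 week (adjusted p = 1.6e-05). Tnc, the tenascin that Itga9 binds, was higher by 1.54 at 1 day, 1.56 at 3 days and 1.46 at 1 week. Fn1, the fibronectin that Itga5 binds, differed by 0.03 at 1 day and 0.21 at 3 days and was not called.

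Of the 7 leukocyte integrins, 6 were tested up to 3 weeks and 5 at 3 months. Called higher were 3 at 1 day, 4 at 3 days, 5 at 1 week, 3 at 3 weeks and 1 at 3 months. Of all probe sets tested, 7.02%, 6.60%, 6.21%, 2.36% and 0.207% were called higher at these times. No leukocyte integrin was called lower at any time (at an unadjusted p under 0.05 in limma, 0 were lower at each time). Itgb2 and Itgb7 were the members called at all 4 times up to 3 weeks. Of the 16 members called at any of these times, 6 were called once, 5 at 2 times, 3 at 3 times and 2 at 4 times.

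Itgb2 is the beta chain shared by the integrins of neutrophils, macrophages and lymphocytes. At 1 day it was at 775.6, 740.7, 1015, 743 and 855.5 in contralateral and at 3093, 3243, 4035, 2230 and 3464 in crushed ONHs. The groups were far apart, and the log2 difference was 1.94 ± 0.22 (adjusted p = 2.7e-07). It was 1.77 ± 0.22 at 3 days, and at 1 week, with crushed samples at 3072, 2861, 1609, 4515 and 3648, it was 2.04 ± 0.22 (adjusted p = 3.7e-07). At 3 weeks crushed samples were at 1212, 2134, 1217, 1132 and 1247 against 665.6, 489.4, 464, 662.2 and 589.3, with pair 2 the highest and no overlap (1.25 ± 0.22, adjusted p = 0.00033). At 3 months the difference was 0.58 ± 0.22 and not called (adjusted p = 0.32).

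Itgam, which joins Itgb2 in the complement receptor of neutrophils, monocytes and microglia, was highest at 1 day. It was at 97.36, 71.37, 109.2, 78.52 and 127.7 in contralateral and at 321, 488.7, 387.4, 229.8 and 471.5 in crushed ONHs, without overlap (1.95 ± 0.19, adjusted p = 4.7e-08). It was higher by 1.08 at 3 days and 1.33 at 1 week. At 3 weeks the difference was 0.42 and not called (adjusted p = 0.13), and the effect at 3 weeks differed from that at 1 day by -1.53 ± 0.27 (adjusted p = 0.00017). At 3 months all samples were at 6.62 to 40.4 and Itgam was not tested.

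Itgax, which joins Itgb2 on dendritic cells and on activated microglia, was called higher at 3 days, 1 week and 3 weeks. No change of its crush effect between times was called. At 1 day the groups overlapped, with 101 to 252.1 against 229.9 to 419.1 (0.85 ± 0.38, adjusted p = 0.064). At 3 days contralateral ONHs were at 137.9 to 310.4 and crushed ones at 398.2 to 1077, without overlap. At 1 week contralateral ONHs were at 257.3, 225.1, 257.4, 125.9 and 138.5 and crushed ones at 961, 959.8, 398.4, 2556 and 1315. The crushed group spread over a wide range, with pair 3 lowest and pair 4 highest, and all of it lay above the controls (2.44 ± 0.38, adjusted p = 3e-05). At 3 weeks crushed samples were at 516.8, 1075, 473.8, 387.6 and 385.8 and no control exceeded 162.3 (2.15 ± 0.38, adjusted p = 0.00037). At 3 months the difference was 0.43 and not called.

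Itgb7, which pairs with Itga4 or Itgae on lymphocytes, was the member that stayed high the longest. At 1 day it was at 112.6, 71.53, 73.28, 124.4 and 80.37 in contralateral and at 299.5, 318.8, 300.7, 151.4 and 301 in crushed ONHs (1.56 ± 0.30, adjusted p = 0.00016). At 3 weeks contralateral ONHs were at 93.85, 107.3, 62.36, 103.6 and 148 and crushed ones at 683, 469.3, 560.2, 928 and 482.9. Each crushed sample was more than 3 times the highest control, and the difference was 2.61 ± 0.30 (adjusted p = 4.9e-06).

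At 3 months Itgb7 was at 29.44, 120.6, 77.36, 168.2 and 107.3 in contralateral and at 321, 500.6, 324.1, 533.5 and 462.2 in crushed ONHs. The groups did not overlap, and contralateral replicate 1, the sample rich in photoreceptor transcripts, was the lowest. The log2 difference was 2.27 ± 0.28 (adjusted p = 0.039), and without any one pair it was 1.97 to 2.42 with an adjusted p of 0.057 to 0.19. On the whole array 0 to 58 probe sets were called at 3 months without any one pair, against 87 with all pairs. The effect at 3 weeks exceeded that at 1 week by 1.26 ± 0.42 (adjusted p = 0.048), which was 0.18 without replicate 1, 0.11 without replicate 2 and 0.19 without replicate 3.

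Itga4, which pairs with Itgb7 or Itgb1 on lymphocytes and monocytes, was at 288.3, 481.2 and 598.8 (lowest, median and highest) in crushed ONHs at 1 week, above the 96.91 to 163.4 of the controls (1.78 ± 0.17, adjusted p = 8.5e-08). At 3 weeks the means were 190.2 ± 54.02 in contralateral and 194.8 ± 72.16 in crushed ONHs (difference 0.00 ± 0.17). A dimmer probe set of Itga4 was higher by 1.81 at 1 day, 1.69 at 3 days and 1.76 at 1 week. At 1 day and 3 days the brighter one gave 0.28 and 0.40 without a call. With the mean of its probe sets, the change of the Itga4 effect from 3 days to 1 week was 0.72 (limma adjusted p = 0.12). Itgae differed by -0.27 to 0.51 up to 3 weeks and was not called. Itgal, the lymphocyte partner of Itgb2, never exceeded 36.55 and was not tested, although all crushed samples at 1 day, at 22.3 to 36.55, lay above the 7.25 to 14.24 of the controls.

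**Figure D5:**
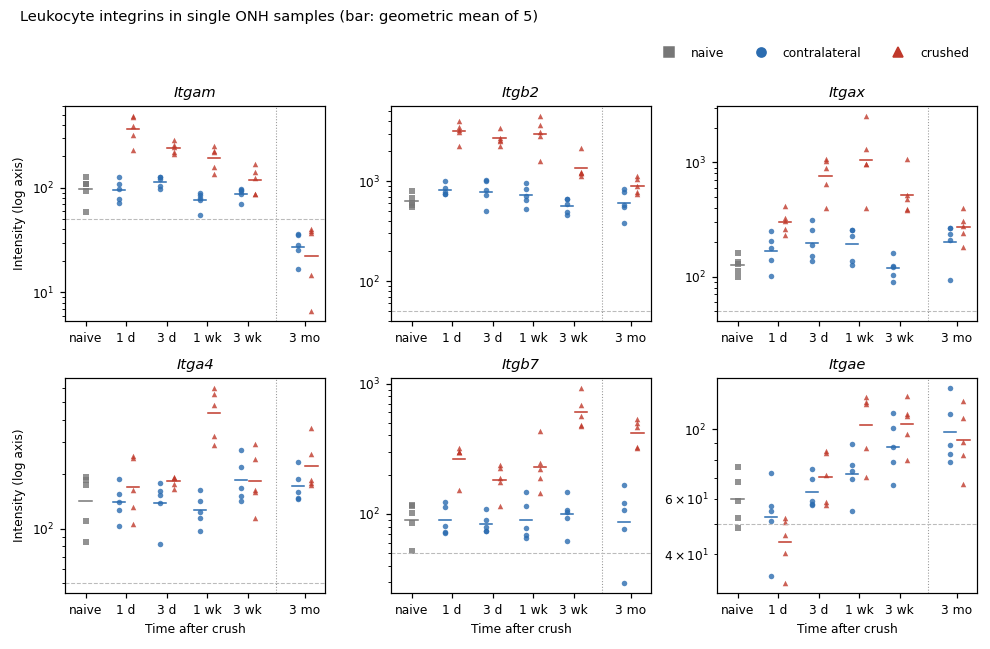
Intensity of 6 leukocyte integrin chains in every sample on a log axis, for naïve (squares), contralateral (circles) and crushed (triangles) ONHs by time after crush. Bars are geometric means of 5, the dashed line marks an intensity of 50 where it lies in range and the dotted line separates the batches. Each gene is shown by its brightest probe set. Itgam is highest in the crushed samples at 1 day, Itga4 at 1 week and Itgb7 at 3 weeks, and Itgb7 lies above its controls at 3 months as well.

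The promoters of 3 members are shown, all of them leukocyte integrins. Up to 3 weeks the largest log2 difference was at 1 day for Itgam, at 1 week for Itgax and at 3 weeks for Itgb7. These times are not settled for each gene. No change between times was called for Itgax, and that of Itgb7 from 1 week to 3 weeks was lost without replicate 1, 2 or 3. They are RefSeq windows of 300 bases of the GRCm38.p6 build, read 5′ to 3′ on the strand of the gene from 250 bases before its start to 50 after it. Capitals mark GAGGAA on that strand or, as TTCCTC, on the other, the purine-rich core that ETS factors of the PU.1 kind bind in myeloid cells. Itgam lies at chr7:128062390-128062689 (+ strand), Itgax at chr7:128129300-128129599 (+ strand) and Itgb7 at chr15:102231886-102232185 (- strand).
Itgam: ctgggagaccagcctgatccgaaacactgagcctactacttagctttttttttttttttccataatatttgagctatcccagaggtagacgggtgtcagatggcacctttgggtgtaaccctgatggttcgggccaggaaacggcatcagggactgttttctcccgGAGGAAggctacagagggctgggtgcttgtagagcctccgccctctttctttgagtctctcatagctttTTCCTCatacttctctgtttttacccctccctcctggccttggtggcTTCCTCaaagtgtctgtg
Itgax: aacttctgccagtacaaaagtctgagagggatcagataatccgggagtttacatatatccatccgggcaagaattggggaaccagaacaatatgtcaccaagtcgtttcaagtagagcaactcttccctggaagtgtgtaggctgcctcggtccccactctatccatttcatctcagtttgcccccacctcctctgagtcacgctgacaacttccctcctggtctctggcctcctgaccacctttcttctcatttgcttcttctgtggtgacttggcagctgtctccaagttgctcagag
Itgb7: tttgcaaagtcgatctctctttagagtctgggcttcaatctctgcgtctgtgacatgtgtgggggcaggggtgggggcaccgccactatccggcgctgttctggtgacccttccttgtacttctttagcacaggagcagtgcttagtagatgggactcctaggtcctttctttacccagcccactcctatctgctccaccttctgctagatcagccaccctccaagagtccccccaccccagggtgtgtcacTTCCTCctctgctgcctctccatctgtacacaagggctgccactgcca

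The Itgam window held 3 matches, 1 of them on the gene's own strand, the Itgb7 window held 1 on the other strand and the Itgax window held 0. Windows of 23 members were in the table, 26 in all, and 14 of the 26 windows held a match, against 28.3% of all 32851 windows. Itga4, whose brightest probe set was highest at 1 week, held 0. Itga5, Lama2, Lama5, Lamb1 and Lamb2 held 1 each, and Itgb2 was not in the table. A match is a description of the sequence and no binding was measured.

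The summed intensity of 12 neutrophil genes was 1443 to 2922 in contralateral and 20000 to 27820 in crushed ONHs at 1 day, where Itgam was highest. Of the 8 genes tested, 6 were called higher at 1 day. At 1 week the sum was 2640 to 13910 in crushed ONHs. Such a sum follows its brightest genes. The list also holds Lcn2 and Mmp9, and the paper describes Mmp9 as secreted by astrocytes and neurons. The sum therefore need not come from neutrophils alone. Ngp and Elane, markers of immature neutrophils, never reached an intensity of 50. The 21 genes of microglia and macrophages summed to 59760 to 67130 and 62590 to 91240 at 1 day, where 6 were called higher and 3 lower. At 1 week they summed to 58550 to 68850 and 94210 to 139300, and 10 of 21 were higher and 0 lower. The 15 genes of T and NK cells summed to 1028 to 1606 and 2731 to 8279 at 1 week, where the brightest probe set of Itga4 was highest. They summed to 1128 to 1504 and 2073 to 3726 at 3 weeks, where Itgb7 was highest. At 3 months they summed to 1087 to 2006 and 2258 to 5002. Of all probe sets tested, 7.02% were called higher and 7.44% lower at 1 day, and 6.21% and 3.53% at 1 week. The part of these cells in the integrin differences was not tested.

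Of 11 ligands of leukocyte integrins, 10 were tested. At 1 day 0 were higher and 2 lower, and 2 were higher at 3 days, 1 at 1 week and 1 at 3 weeks. For all probe sets the shares called at these times were 14.5%, 8.79%, 9.73% and 4.11%. Icam1 and Vcam1, the vessel ligands of Itgb2 and Itga4 pairs, differed by 0.26 to 0.68 up to 3 weeks and were not called. Jam2, a junction protein that binds Itga4 with Itgb1, was lower by -1.49 ± 0.11 at 1 day (adjusted p = 1.8e-09). Cdh1, the ligand of Itgae with Itgb7, was lower by -1.46 at 1 day and higher by 1.36 ± 0.22 at 3 weeks (adjusted p = 0.00018). Thy1, a ligand of Itgam and also a marker of ganglion cells, was higher by 1.38 ± 0.17 at 3 days (adjusted p = 2.3e-06).

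Of 25 adaptors that link integrins to the cytoskeleton, 24 were tested. At 1 day 2 were higher and 1 lower, at both 3 days and 1 week 3 were higher, and at 3 weeks 1 was lower. Over the whole array 14.5%, 8.79%, 9.73% and 4.11% of probe sets were called at these times. The list's median was 0.06, 0.24, 0.06 and 0.10. Parvg, a parvin of leukocytes, was higher by 1.84 ± 0.25 at 3 days (adjusted p = 7.3e-06), and Fyb, an adaptor of T cells and platelets, by 1.72 ± 0.23 (adjusted p = 5e-06). Fermt3, the kindlin of blood cells, was higher by 1.38 at 3 days. Lims2, an adaptor of focal adhesions, was lower by -1.83 ± 0.16 at 1 day (adjusted p = 9e-09).

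Of the 5 genes that share the symbols without being chains, Itgbl1 was called. It encodes a secreted protein with repeats like those of integrin beta chains. At 1 day it was at 1308, 914.1, 1019, 1395 and 1841 in contralateral and at 333.9, 412.8, 202.6, 215.8 and 182.8 in crushed ONHs, all lower (-2.29 ± 0.21, adjusted p = 2.4e-08). At 1 week it was at 1729, 1175, 1696, 1467 and 1677 in contralateral and at 3011, 3326, 3446, 3775 and 3033 in crushed ONHs, all higher (1.11 ± 0.21, adjusted p = 3e-04). The difference was 1.19 ± 0.21 at 3 weeks (adjusted p = 0.00043), and from 1 day to 3 weeks the effect changed by 3.49 ± 0.30, the largest change of effect among the members (adjusted p = 8.4e-08).

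At 3 months Itgbl1 was at 677.2, 1337, 950, 1398 and 1295 in contralateral and at 2919, 2096, 2161, 2077 and 2921 in crushed ONHs. Every crushed sample was above every control, but the difference of 1.14 ± 0.23 was not called (adjusted p = 0.096). Itgb3bp, a centromere protein that binds the tail of Itgb3, was higher by 0.51 at 3 days (adjusted p = 0.0012) and above all controls, under 2-fold. Itgb1bp1 and Itgb1bp2, which bind the tail of Itgb1, differed by -0.17 to 0.19 and were not called. Itgb2l, a relative of Itgb2, was tested at 3 months alone and not called.

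The difference between the crush effects of 2 times was tested itself. Between 1 day and 3 days 6 of 31 differed, all toward higher values (4.93% of all probe sets called, 3.90% higher and 1.03% lower), and between 3 days and 1 week 2 were higher and 1 lower (3.12%, 1.08% and 2.04%). Between 1 week and 3 weeks 6 differed (4.50%, 1.40% higher and 3.10% lower), with Lama5, Lamb2, Itgb4 and Itgb7 higher and Itga4 and Lamb1 lower at the later time. Between 1 day and 3 weeks 9 differed (12.8%, 6.80% higher and 6.00% lower), with Itga5, Itga7 and Itgam lower and the other 6 higher at the later time. Of these, the change of Itga7 by -1.04 (adjusted p = 0.043) was the least stable. Its adjusted p was 0.19, 0.11, 0.11 and 0.095 without pair 1, 3, 4 or 5, 0.06 with no filter on dim probe sets and 0.068 with quantile normalisation. The adjusted p of Lama1 was 0.076 without pair 2 and 0.08 without pair 3, and the change of Itgb4 was 0.87 without pair 2 (adjusted p = 0.092). Among the shorter intervals, the change of Lamb1 was under 2-fold between 1 day and 3 days without pair 3 (0.80) and between 1 week and 3 weeks without pair 4 (-0.96), Itga8 between 1 day and 3 days had an adjusted p of 0.053 without pair 1, and Itgbl1 between 3 days and 1 week had an adjusted p of 0.052 without pair 2.

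Contralateral ONHs were also compared with naïve ONHs. The naïve samples carry no time of collection, so crush of the other eye, age and time of collection cannot be told apart in this comparison. None of 29 members tested was called at 1 day, 3 days, 1 week or 3 weeks, where 0%, 0%, 0.112% and 0.691% of all probe sets were. At an unadjusted p under 0.05 in limma, 0, 1, 4 and 11 members differed. At 3 weeks 5 of these had an adjusted p under 0.05, as had 10.1% of all probe sets, and were under 2-fold. Itga2b and Itgb3bp were higher in contralateral ONHs, by 0.51 and 0.46, and Lama5, Itga5 and Lamb2 were lower, by -0.91, -0.73 and -0.69.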

How the data were processed

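RNA of 55 samples was amplified to cDNA and hybridised to Affymetrix mouse genome arrays. The authors deposited linear intensities, which they had normalised to an invariant set of probe sets and summarised with the perfect match minus mismatch model of dChip. The 45 arrays of naïve samples and 1 day to 3 weeks were processed as 1 batch and the 10 arrays of 3 months as another, so nothing was compared between them. No depth applies to arrays, and their number limits the precision.

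Of 22690 probe sets, 64 were controls, 20380 named 1 gene, 691 several and 1555 none in the platform annotation, and only the first kind was named. Intensities were floored at 20 (9.9% of values lay below), set to log2 and fitted with limma 3.58.1 in R 4.3.3 (lmFit, eBayes with trend), for probe sets with an intensity of at least 50 on at least 5 arrays of the model. The pair of samples was a block in the model of 40 arrays and in that of 10, because the methods state that both eyes came from the same mice. That samples of equal replicate number share mice was assumed. Deviations of same-numbered samples correlated at -0.45 to 0.56, over 0.1 in 8 of 25 pairs. In 3 of 25 pairs the crushed sample correlated best with the contralateral sample of its own number, so these values do not bear out the assumption. Naïve and contralateral arrays, 25 in all, were fitted unpaired. P-values were adjusted by Benjamini-Hochberg over all 19313, 18823 or 18669 probe sets tested. The fits were tested on simulated data.

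The members and gene lists were chosen with earlier results of these data known. All members are named, with intensities in every sample for those of each role with the largest called changes, and up to 3 called genes of each other list. Tnc, Fn1, Icam1, Vcam1 and the dimmer probe sets were added after values were seen. Alternatives were another floor, scale, filter, normalisation and probe set rule, no pairing, no trend, the methods' 3 criteria and leaving out each replicate. Plots were drawn with matplotlib 3.10.9. Promoter windows came from RefSeq, and 13 members were not in that table.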

Additional observations from a re-analysis of the deposited data

Results flagged for a closer look

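In 4 of 34 groups of 5 pairs examined, 1 pair lay far from the others, where chance gives about 1 in 20. For Itgam at 1 day the log2 difference in pair 2 was 2.78, against 1.55 to 1.88 in the others. For Itgb2 at 1 day it was 1.59 in pair 4, against 1.99 to 2.13. For Itgb7 at 3 days it was 0.07 in pair 2, against 1.25 to 1.59, and at 3 months it was 3.45 in pair 1, against 1.66 to 2.11. Pair 1 at 3 months holds the contralateral sample with the highest photoreceptor sum.

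The crush effect differed between times in 24 tests, given here as the later minus the earlier log2 difference, each with a limma adjusted p under 0.05. From 1 day to 3 days it changed by 1.13 for Itga8, 1.22 for Itgb5, 2 for Itgbl1, 2.6 for Lama1, 1.36 for Lama2 and 1.04 for Lamb1. From 3 days to 1 week it changed by -1.17 for Itga3, 1.37 for Itga4 and 1.4 for Itgbl1. From 1 week to 3 weeks it changed by -1.78 for Itga4, 1.46 for Itgb4, 1.26 for Itgb7, 1.27 for Lama5, -1.09 for Lamb1 and 1.32 for Lamb2. From 1 day to 3 weeks it changed by -1.68 for Itga5, -1.04 for Itga7, -1.53 for Itgam, 1.37 for Itgb4, 1.46 for Itgb5, 3.49 for Itgbl1, 1.78 for Lama1, 2.24 for Lama2 and 1.71 for Lamb2.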

How the results depend on the processing

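No member called changed direction under an alternative. The medians of matrix integrins and laminin chains at 3 months, which lie near 0, changed sign, to 0.10 and 0.05 without pair 2, and the matrix median also to 0.03 with a common median and 0.01 with the mean of all probe sets. The count at 3 months rests on Itgb7 and was the least stable. It was 1, and 0 with no filter on dim probe sets, 0 without the intensity trend, 0 with the photoreceptor level as a covariate (chosen after seeing the data) and 0 to 0 when each pair was left out. Without the replicate block it was 2, both higher. The number of probe sets called on the whole array at 3 months moved as well, from 87 in the main model. That number was 6 with no filter on dim probe sets, 26 without the intensity trend and 47 with the covariate. Without pairs 1 to 5 in turn it was 5, 0, 0, 0 and 58, and without the replicate block it was 302. Without the block the counts were 12, 6, 11 and 5 from 1 day to 3 weeks, where the paired model gave 12, 6, 11 and 4. The methods' 3 criteria, which include a difference of means, gave 7, 4, 5 and 2 from 1 day to 3 weeks and kept Itgb7 as the 1 member at 3 months. The mean of all probe sets of a gene gave 1 member whose effect differed between 3 days and 1 week, against 3. The cause of these shifts was not tested.

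Leaving out each pair gave 11 to 12 members at 1 day, 5 to 7 at 3 days, 11 to 12 at 1 week and 4 to 5 at 3 weeks, and 4 to 6, 2 to 4, 5 to 8 and 7 to 9 for the differences between times in the order given in the report. Leaving out each naïve or contralateral sample gave 0 to 1 member at 3 weeks, the 1 without naïve replicate 5, and 0 earlier. The leukocyte median at 1 day was 1.37 with log2(intensity + 1) and no floor, and the matrix median at 1 week was 0.06 with a floor of 50, both chosen after seeing the data.

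Itgam and Itgb7 at 3 days were just past 2-fold, and with quantile normalisation they were 0.90 and 0.93, where the median of all probe sets shifted by -0.10. With a common median that shift was -0.13. Dim members such as Itga2, Itga8 and Lamc3 lie near the floor, which limits the size of their differences.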
